A study of Mus musculus with 12 samples.

Results

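TRAV7-3, TRAV7D-3, TRAV7-4, TRAV7D-4 and TRAV7N-4 are 5 variable (V) gene segments of the mouse T cell receptor (TCR) alpha locus. They are the TRAV7 copies numbered 3 and 4, and their cells were chosen by the V segment of the TRA contig with the most unique molecular identifiers (UMIs) in each cell. Of 66136 cells of the deposited cell table with a TRA contig, 2693 used 1 of the 5 copies, which is 4.07%. TRAV7-3 was used by 991 cells, TRAV7-4 by 814, TRAV7D-3 by 505, TRAV7D-4 by 247 and TRAV7N-4 by 136. The other TRAV7 segments together held 4670 cells, with 1543 for TRAV7D-2, 1420 for TRAV7-5, 639 for TRAV7N-5, 550 for TRAV7-6, 312 for TRAV7N-6 and 206 for TRAV7-1.

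Wild-type C57BL/6 mice were injected 2 times a week for 14 days, and CD8+ T cells were then sorted from the spleen. A group of 5 mice received 10 µg of the anti-CD137 antibody 3H3, which targets a costimulatory receptor of activated T cells, and a group of 10 mice received 100 µg of the control immunoglobulin HRPN. The sort gates were CD44hiPD1- for effector cells (Teff), CD44hiPD1+Slamf6+Tim3- for precursors of exhausted cells (Tpex) and CD44hiPD1+Slamf6-Tim3+ for terminally exhausted cells (Tex). The 12 samples are a gene expression and a TCR library from each of 6 sorted populations, 1 per treatment and gate. Cells were not tied to mice, and no comparison of treatments has a replicate check. The sorted phenotypes were not checked against gene markers, because no values per gene were used here. All intervals are exact 95% binomial intervals, or are built from them for differences. They cover counting error only, and expanded clonotypes make cells depend on each other.

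A T cell assembles its TCR alpha chain by joining a V segment to a joining (TRAJ) segment, and the assembled chain then pairs with a beta chain made from TRBV, D and TRBJ segments. The V and J parts meet in CDR3, the loop that contacts the presented peptide most, whereas CDR1 and CDR2 are encoded by the V segment alone. In C57BL/6 mice a large stretch of TRAV segments is repeated, and copies in the repeats carry the letter D or N in their names. The alpha locus can rearrange more than once in a thymocyte, and each later join replaces the earlier one with a V segment farther upstream and a TRAJ segment farther downstream, where TRAJ numbers are lower.

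All 5 copies lie on the plus strand of mouse chromosome 14, by GENCODE M21 on the mm10 (GRCm38) assembly. TRAV7D-3 is at chr14:52744249-52744840 and TRAV7D-4 at chr14:52769753-52770392. TRAV7N-4 is at chr14:53091346-53091875, TRAV7-3 at chr14:53443249-53443839 and TRAV7-4 at chr14:53461099-53461738. Each has 2 exons, and the second exon encodes the mature V region. The gaps from the end of the gene to the first TRAJ were 1410 kb for TRAV7D-3, 1385 kb for TRAV7D-4, 1063 kb for TRAV7N-4, 711.2 kb for TRAV7-3 and 693.3 kb for TRAV7-4.

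The copies of a number are almost the same gene, so the sequences below show the bases on which their names rest. Positions are counted from 1 at the first base of framework 1, and sequences are the plus strand of the GENCODE transcripts, 5′ to 3′. TRAV7-3 and TRAV7D-3 differ at 2 of 277 bases, C219G and G222A, both in framework 3 and both without effect on the protein. Bases 166 to 277, from framework 3 to the end of the segment, are shown with these positions in capitals.
TRAV7-3: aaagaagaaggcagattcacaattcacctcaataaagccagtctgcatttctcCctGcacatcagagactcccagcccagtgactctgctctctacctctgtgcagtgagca
TRAV7D-3: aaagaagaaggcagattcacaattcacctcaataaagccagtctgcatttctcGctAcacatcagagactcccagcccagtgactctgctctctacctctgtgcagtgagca
TRAV7-4 and TRAV7D-4 differ at 1 of 281 bases, A147C in framework 2, which leaves the protein unchanged. TRAV7N-4 differs from TRAV7-4 at 4 bases, C96T, G135A, A147C and C272T. Only C272T, inside the part of CDR3 that the V segment encodes, changes the protein. Bases 79 to 165, from CDR1 to the end of CDR2, are shown with the positions that differ among the number 4 copies in capitals.
TRAV7-4: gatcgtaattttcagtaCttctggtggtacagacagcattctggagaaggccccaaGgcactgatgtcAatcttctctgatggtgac
TRAV7D-4: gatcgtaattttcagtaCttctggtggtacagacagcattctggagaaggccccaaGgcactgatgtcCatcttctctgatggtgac
TRAV7N-4: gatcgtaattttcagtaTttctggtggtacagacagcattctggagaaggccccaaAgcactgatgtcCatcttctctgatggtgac
The germline start of CDR3, from base 265 to the end of the segment, is shown with position 272 in capitals for TRAV7-4 and TRAV7N-4.
TRAV7-4: tgtgcagCtagtgagca
TRAV7N-4: tgtgcagTtagtgagca

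Between the numbers the proteins differ more. TRAV7-3 and TRAV7-4 differ at 37 of 277 bases and at 17 of 92 residues. CDR1 reads DSASQY in both number 3 copies and DRNFQY in all 3 number 4 copies, and CDR2 reads IFSNGE in the first and IFSDGD in the second. The germline start of CDR3 reads CAVS in TRAV7-3 and TRAV7D-3, CAASE in TRAV7-4 and TRAV7D-4, and CAVSE in TRAV7N-4. Hence a TRAV7-3 and a TRAV7D-3 receptor with the same CDR3 are the same protein, and so are TRAV7-4 and TRAV7D-4 receptors.

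The deposited contigs were compared with these bases. All 1322 TRAV7-3 contigs and all 685 TRAV7D-3 contigs carried the bases of their own copy at positions 219 and 222. All 1141 TRAV7-4 contigs carried that copy's bases at the 3 positions upstream of CDR3 that separate the number 4 copies. For TRAV7D-4 it was 323 of 324 contigs and for TRAV7N-4 it was 178 of 180. The third residue of CDR3, which position 272 sets in the number 4 copies unless the join trims it, was alanine in 97.2% of 602 TRAV7-4 chains, in 97.6% of 211 TRAV7D-4 chains and in 1.69% of 118 TRAV7N-4 chains. It was valine in 94.9% of TRAV7N-4 chains, in 81.7% of 737 TRAV7-3 chains and in 77.5% of 413 TRAV7D-3 chains. A chain here is a V segment with a nucleotide CDR3, counted once per library.

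The anti-CD137 Tpex library stands apart and is given before the results that rest on it. It had 4556 cells with a TRA among 13209 in the cell table, against 10178 of 12871 in the control Tpex library. Member cells there had a median of 2190 UMIs per cell and 3 UMIs on their TRA, against 4930 and 6 in control Tpex. There, 127 member cells shared their TRA with other cells, and on average 43.8% of those others also had the same TRB. The value was 96.9% over 127 cells in control Tpex, 96.7% in control Tex and 87.2% in anti-CD137 Tex. It was 32.3% and 33.7% in control and anti-CD137 Teff. Member cells with more than 1 TRB made up 26.5% in anti-CD137 Tpex and between 7.02% and 18.1% in the other libraries. The part of these pairing differences in the clonotype results below was not tested. Of the 2693 cells, 265 had a barcode that also occurs in another library, and 0 of these barcodes held the same TRA in 2 libraries.

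In the control libraries the 5 copies were less frequent in the exhausted subsets when cells were counted. They made up 4.50% of TRA-bearing cells in control Teff (804 of 17851, 95% interval 4.20 to 4.82), 3.20% in control Tpex (326 of 10178, 2.87 to 3.56) and 2.39% in control Tex (189 of 7906, 2.07 to 2.75). With anti-CD137 the shares were 4.74% in Teff (988 of 20856, 4.45 to 5.03), 4.72% in Tpex (215 of 4556, 4.12 to 5.38) and 3.57% in Tex (171 of 4789, 3.06 to 4.14). The difference between treatments was 0.233 percentage points in Teff, with an interval from -0.191 to 0.655. It was 1.52 points in Tpex (0.818 to 2.25) and 1.18 points in Tex (0.557 to 1.83). Member cells with more than 1 TRA made up 29.6% in control Tex and 4.68% in anti-CD137 Tex, and among cells with exactly 1 TRA the Tex difference was 1.95 points (1.31 to 2.62). Counting each clonotype once, a clonotype being a pair of nucleotide TRA and TRB CDR3s, the shares of control and anti-CD137 were 4.48% and 4.63% in Teff, 4.21% and 4.81% in Tpex, and 3.38% and 4.94% in Tex. All 3 intervals of these clonotype differences included 0, with 0.153 points in Teff, 0.601 in Tpex (-0.288 to 1.52) and 1.56 in Tex (-0.0965 to 3.20). Among the control libraries the clonotype intervals overlapped, at 4.17 to 4.80 in Teff, 3.69 to 4.79 in Tpex and 2.40 to 4.61 in Tex. The largest clonotype, not of the copies, held 8.65% of paired cells in control Tpex and 9.80% in control Tex.

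The copies did not move as a block. By cells, TRAV7D-3 was the copy with the largest ratio between treatments in Tpex and the only one whose interval of the difference excluded 0 in both Tpex and Tex. Its control and anti-CD137 shares were 0.857% and 1.03% in Teff (153 and 214 cells), 0.324% and 1.34% in Tpex (33 and 61) and 0.190% and 0.606% in Tex (15 and 29). The difference was 1.01 points in Tpex (0.675 to 1.41, 4.13-fold) and 0.416 points in Tex (0.181 to 0.692, 3.19-fold). By clonotypes it was 0.726 points in Tpex (0.312 to 1.19) and 0.784 points in Tex (0.0382 to 1.56), the second from 4 control and 15 anti-CD137 clonotypes. The 61 anti-CD137 Tpex cells carried 27 TRA chains, of which 10 chains, with 35 cells, were joined to at least 2 TRB chains. The 33 control Tpex cells carried 30 chains, 0 of them with more than 1 TRB. With each TRA chain counted once, the TRAV7D-3 difference in Tpex was 0.405 points with an interval from -0.0145 to 0.891, and in Tex it was 0.825 points (0.0418 to 1.67).

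TRAV7-3 encodes the same V protein as TRAV7D-3, and its control and anti-CD137 shares were 1.58% and 1.75% in Teff, 0.992% and 1.62% in Tpex, and 1.30% and 1.40% in Tex. In Tex the difference was 0.0962 points (-0.321 to 0.540), and 0.454 points (0.125 to 0.817) without the largest TRAV7-3 clonotype of each library. Its Tpex difference was 0.632 points by cells (0.225 to 1.08) and 0.170 points by clonotypes (-0.365 to 0.736). TRAV7-4 was the steadiest copy across libraries by clonotypes, between 1.22% and 1.41% in all 6. By cells it ran from 0.721% in control Tex and 1.15% in anti-CD137 Tex to between 1.22% and 1.34% in the other 4 libraries. The shares of TRAV7D-4 by cells were 0.454% and 0.432% in Teff, 0.393% and 0.329% in Tpex, and 0.126% and 0.230% in Tex, control first. TRAV7N-4 was the rarest copy in every library, with 0.269% and 0.201% of Teff cells, 0.275% and 0.110% of Tpex cells and 0.0506% and 0.188% of Tex cells in the same order. Its Tex cells numbered 4 and 9, from 3 and 2 clonotypes.

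In each Teff library the order was TRAV7-3, TRAV7-4, TRAV7D-3, TRAV7D-4 and TRAV7N-4. In control Teff the intervals of TRAV7-3 (1.40 to 1.77) and TRAV7-4 (1.18 to 1.52) overlapped, as they did in both Tpex and anti-CD137 Tex libraries, so these neighbours were not separated there. In anti-CD137 Tpex, TRAV7D-3 (1.03 to 1.72) stood beside TRAV7-4 (1.01 to 1.69). TRAV7D-3 was 35.2% of number 3 cells in control Teff and 37.0% in anti-CD137 Teff. In control Tpex it was 24.6% of them (17.6 to 32.8), in anti-CD137 Tpex 45.2% (36.6 to 54.0), in control Tex 12.7% (7.29 to 20.1) and in anti-CD137 Tex 30.2% (21.3 to 40.4). Counting TRA chains, it was 27.3% in control and 35.1% in anti-CD137 Tpex, with overlapping intervals. In Tex it was 26.7% of 15 control chains (7.79 to 55.1) and 42.4% of 33 anti-CD137 chains (25.5 to 60.8), which also overlapped. In control Tex, clonotypes of 58 and 30 cells held most of the 103 TRAV7-3 cells. Among number 4 cells TRAV7D-4 held between 14.1% and 22.0% in the 6 libraries.

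These folds stand against a wide background. A segment was called where its shares differed at least 1.5-fold in either direction, among segments that reached 0.2% of TRA-bearing cells in at least 1 of the 2 libraries. In Teff, 1.27% of 79 TRAV segments were called by cells and 1.27% by clonotypes, and 0 of the 5 copies. In Tpex 48.7% of 76 segments were called by cells, 25 of them higher with anti-CD137 and 12 lower, and of the copies TRAV7-3 and TRAV7D-3 were higher and TRAV7N-4 lower. By clonotypes 28.9% were called in Tpex, 8 higher and 14 lower, with TRAV7D-3 among the higher and TRAV7N-4 among the lower. In Tex 71.6% of 74 segments were called by cells, 30 higher and 23 lower, and TRAV7-4, TRAV7D-3 and TRAV7D-4 were higher, of 4 copies that reached the minimum. By clonotypes 43.2% were called in Tex, 17 higher and 15 lower, with TRAV7-3, TRAV7D-3 and TRAV7D-4 higher. TRAV7N-4 in Tpex, and TRAV7D-3 and TRAV7D-4 in Tex, reached the minimum only in the library where they were more frequent, which favours a call. The intervals of the difference by cells included 0 for TRAV7N-4 in Tpex (-0.308 to 0.00748) and for TRAV7D-4 in Tex (-0.0532 to 0.296).

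**Figure D1:**
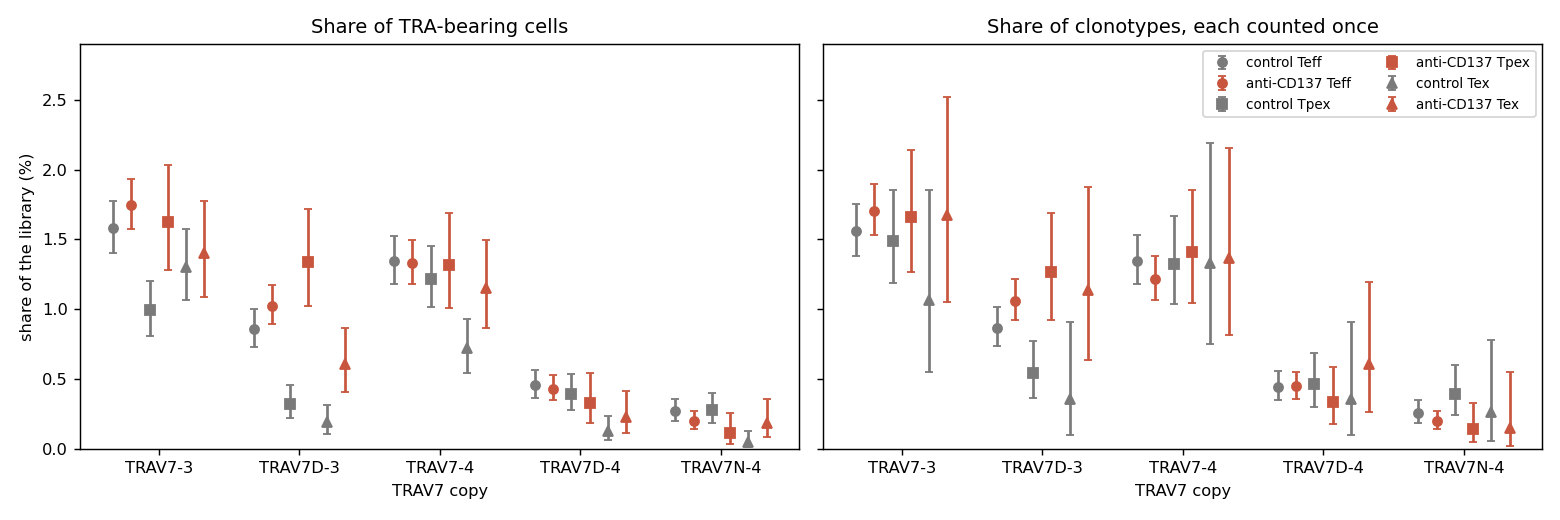
Share of each library (%, vertical axis) that used each TRAV7 copy (horizontal axis), by TRA-bearing cells (left) and by clonotypes counted once (right), with exact 95% intervals; circles are Teff, squares Tpex and triangles Tex, grey for control and red for anti-CD137. TRAV7D-3 lay at 0.324% of cells in control Tpex and 1.34% in anti-CD137 Tpex, whereas TRAV7-4 lay between 1.22% and 1.41% of clonotypes in all 6 libraries.

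Over the 6 libraries, the pattern of the 5 copies together was closest to that of TRAV6D-6 among 75 other TRAV segments with at least 100 cells. The measure was the root mean square difference of log2 shares of cells, each centred on its mean over the libraries with 0.5 cells added. It was 0.08 for TRAV6D-6, 0.11 for TRAV4N-4 and 0.20 for TRAV13D-1. For TRAV7-4 the nearest segment was TRAV8-1, at 0.12. For TRAV7-3 it was TRAV13-1 at 0.22, for TRAV7D-4 it was TRAV5-4 at 0.24 and for TRAV7N-4 it was TRAV16D-DV11 at 0.18. TRAV7D-3 had no neighbour under 0.37, the value for TRAV4-3, and its twin in sequence, TRAV7-3, came 31st of 79 at 0.78. The measure counts cells, and TRAV7D-3 had 15 cells in control Tex. Clonotypes of 58 and 30 cells held most of the 103 TRAV7-3 cells there.

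The same neighbours flank the copies in the distal D block and in the block next to the TRAJ cluster, in the order 6-3, 7-3, 6-4, 7-4 and 8-1. In each of these 5 pairs the D copy was in fewer chains than its partner. The D copy had 35.9% of the chains of both for TRAV7-3 (413 against 737, interval 33.1 to 38.8) and 26.0% for TRAV7-4 (211 against 602, 23.0 to 29.1). It had 26.9% for TRAV6-3, 41.0% for TRAV6-4 and 29.7% for TRAV8-1. Adjacent segments of 1 block thus differed in this share beyond counting error, and it did not follow their order.

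The 5 copies joined 42 TRAJ segments, with a shift to low numbers, which lie farther from the V segments. The quartiles of their TRAJ number were 16 and 33, against 21 and 40 for all chains. The median TRAJ number was 24 for TRAV7-3 (95% interval of the median 23 to 26, 737 chains), 26 for TRAV7D-3 (23 to 26, 413 chains), 26 for TRAV7-4 (26 to 28, 602 chains), 28 for TRAV7D-4 (23 to 30, 211 chains) and 22 for TRAV7N-4 (21 to 23, 118 chains). The median of all 44424 TRA chains was 30, which the interval of TRAV7D-4 included. TRAJ numbers above 40 made up 10.9% of TRAV7-3, 13.6% of TRAV7D-3, 13.6% of TRAV7-4, 22.3% of TRAV7D-4 and 10.2% of TRAV7N-4 chains, against 24.8% of all chains. Among the copies, only the intervals of TRAV7N-4 and TRAV7-4 were apart.

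Along the locus, the copies lie before the stretch in which the TRAJ number climbs. The 43 other TRAV segments upstream of TRAV7-4 with at least 100 chains had medians from 21 to 31, with 23 in the middle. The 27 segments between TRAV7-4 and the TRAJ cluster had medians from 24 to 50, with 38 in the middle. TRAV7D-3 and TRAV7-3 lie in different blocks of the repeated stretch, 1410 kb and 711.2 kb from the first TRAJ, and their medians of 26 and 24 had overlapping intervals.

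**Figure D2:**
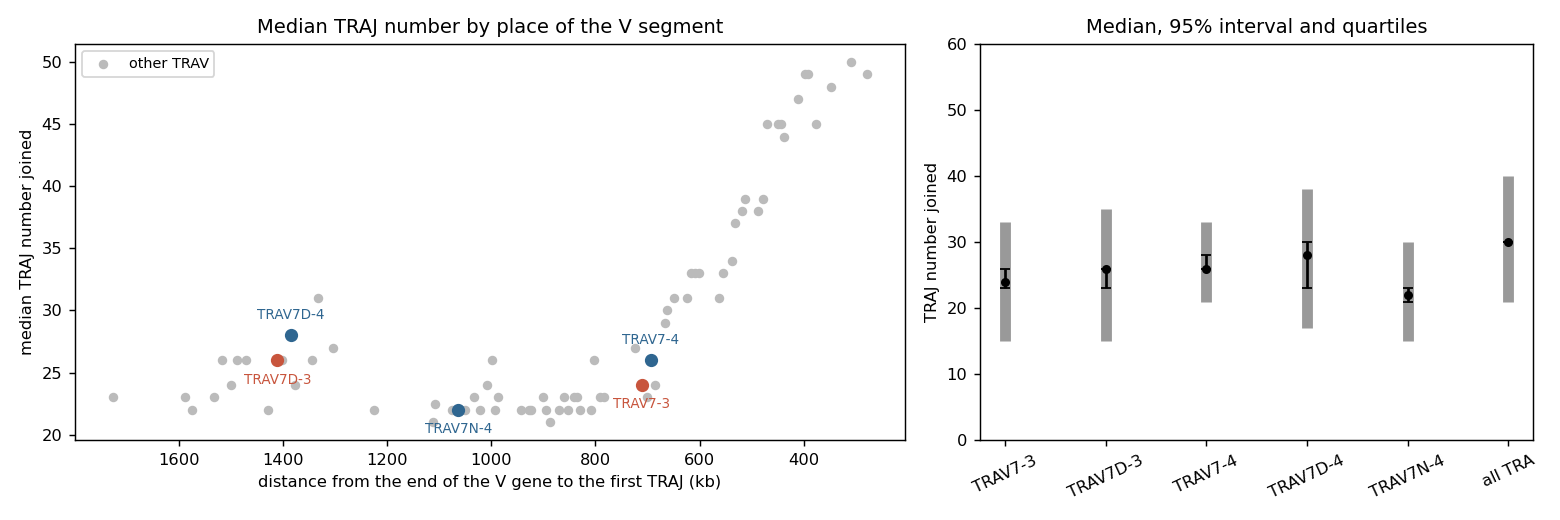
Left, median TRAJ number joined (vertical axis) against the distance in kb from the V gene to the first TRAJ (horizontal axis, nearer to the right) for 75 TRAV segments with at least 100 chains; red and blue mark the number 3 and number 4 copies. Right, medians with 95% intervals over grey bars from the lower to the upper quartile; the 5 copies had medians from 22 to 28, under the 30 of all TRA chains.

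The copies shared most of their frequent TRAJ partners. TRAJ22, TRAJ30, TRAJ26, TRAJ9 and TRAJ15 were the 5 most frequent with TRAV7-3, at 8.96%, 8.01%, 7.73%, 6.65% and 5.16% of its chains, and the same 5 led with TRAV7D-3 in another order. TRAJ9 was 2.10 times as frequent with TRAV7-3 as in all chains (3.17%) and TRAJ11 was 2.06 times (20 chains). TRAJ15 led with TRAV7D-3, at 7.99% (5.56 to 11.0) or 2.36 times its share of all chains. TRAV7-4 was joined most to TRAJ26 (8.14%), TRAJ30 (7.14%), TRAJ23 (6.98%), TRAJ22 (6.48%) and TRAJ33 (5.15%). TRAV7D-4 was joined most to TRAJ22, TRAJ30, TRAJ23, TRAJ7 and TRAJ49, with 15 to 10 chains each. With TRAV7N-4 it was TRAJ23, TRAJ22, TRAJ30, TRAJ15 and TRAJ21, with 11 to 8 chains each. At lower counts, TRAJ28 was 2.68 times as frequent with TRAV7-4 as in all chains (16 chains, 2.66%, 1.53 to 4.28, against 0.993%). TRAJ35, with 0.515% of all chains, was 3.29 times as frequent with TRAV7D-3 (7 chains, 0.684 to 3.46). With TRAV7-3 it was 2.63 times as frequent (10 chains, 0.653 to 2.48). TRAJ43 and TRAJ7 were 2.80 and 2.31 times as frequent with TRAV7D-4 (9 and 11 chains), and TRAJ23 2.24 times with TRAV7N-4 (11 chains), each with an interval above the share of all chains.

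The number 3 copies differed from TRAV7-4 in their beta chains. TRBV1 was the most frequent TRBV partner of both number 3 copies, with 11.6% of 774 TRAV7-3 clonotypes (9.45 to 14.1) and 10.9% of 449 TRAV7D-3 clonotypes (8.18 to 14.2). It made up 5.83% of all 48039 clonotypes, 3.69% of 623 TRAV7-4 clonotypes (2.35 to 5.49), 5.16% of 213 TRAV7D-4 clonotypes (2.61 to 9.05) and 7.02% of 114 TRAV7N-4 clonotypes (3.08 to 13.4). Among 75 TRAV segments with at least 100 clonotypes, TRAV7-3 ranked 1st, TRAV7D-3 3rd, TRAV7N-4 16th, TRAV7D-4 51st and TRAV7-4 71st by TRBV1 share. A TRBV1 share at least 1.5 times that of all clonotypes was reached by 6.67% of these segments, namely TRAV7-3, TRAV15N-2, TRAV7D-3, TRAV14-1 and TRAV6D-3. The number 3 copies together had 11.4% and the number 4 copies 4.42%, a difference of 6.94 points (4.65 to 9.21). Of the number 4 copies only TRAV7-4 had an interval apart from those of both number 3 copies. The interval of TRAV7N-4 overlapped both, and that of TRAV7D-4 overlapped that of TRAV7D-3.

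Number 3 copies had the higher TRBV1 share in the 5 libraries that had any TRBV1 clonotype of the copies. TRBV1 was with 11.8% of 414 number 3 clonotypes and 5.71% of 350 number 4 clonotypes in control Teff, and with 12.7% of 543 and 4.37% of 366 in anti-CD137 Teff. It was with 8.26% of 109 and 4.27% of 117 in control Tpex, and with 10.6% of 104 and 1.49% of 67 in anti-CD137 Tpex. In anti-CD137 Tex it was 1 of 37 and 0 of 28, and in control Tex 0 of 16 and 0 of 22, so that Tex gave too few clonotypes to show a difference. By copy, TRBV1 was with 14.3% of TRAV7-3 and 7.43% of TRAV7D-3 clonotypes in control Teff and with 11.9% and 13.9% in anti-CD137 Teff. Among number 4 copies it was with 11.4% of 44 TRAV7N-4 clonotypes in control Teff (5 clonotypes) and with 3 of 25 TRAV7D-4 clonotypes in control Tpex. In control Tpex it was with 4 of 80 TRAV7-3 clonotypes, near the 5.18% of all clonotypes there. Without the anti-CD137 Tpex library the difference was 6.80 points (4.38 to 9.19). With V and J segments also matched, the copies had 0 clonotypes common to both treatments, which came from different mice.

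The 139 number 3 clonotypes with TRBV1 were varied. They had 129 different TRA and 139 different TRB CDR3s in amino acids, used 35 TRAJ and 12 TRBJ segments, and the largest held 2 cells. Their median TRAJ number was 21, against 26 for the 1084 number 3 clonotypes with another TRBV, and their median TRA CDR3 had 12 against 13 residues. Teff libraries supplied 84.9% of them, against 77.4% of the rest.

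**Figure D3:**
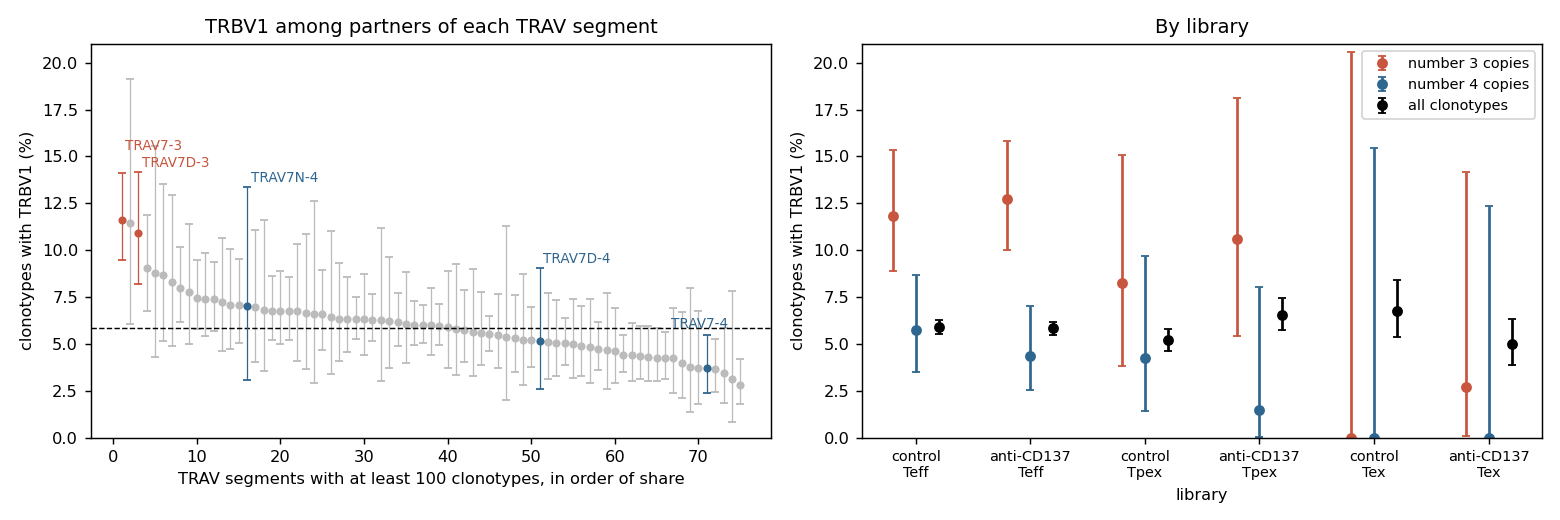
Left, share of clonotypes with TRBV1 (%) for each of 75 TRAV segments in falling order, with exact 95% intervals; the dashed line is the 5.83% of all clonotypes, and TRAV7-3 and TRAV7D-3 (red) stand 1st and 3rd. Right, the same share by library for number 3 copies (red), number 4 copies (blue) and all clonotypes (black); the Teff intervals of red and blue do not overlap.

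Other TRBV partners set single copies apart less broadly. TRBV12-1 made up 7.08% of all clonotypes, but 4.01% of TRAV7-3 (2.74 to 5.64), 3.79% of TRAV7D-3 (2.22 to 5.99) and 3.69% of TRAV7-4 clonotypes (2.35 to 5.49), against 8.92% of TRAV7D-4 clonotypes (5.46 to 13.6). The intervals also lay apart from the share of all clonotypes for TRBV12-2 with TRAV7-3 (5.04%, lower). With TRAV7D-3 they did so for TRBV30 (4 clonotypes, higher) and for TRBV2 (3 clonotypes, lower). The same held for TRBV20 and TRBV13-2 with TRAV7-4, for TRBV16, TRBV2 and TRBV31 with TRAV7D-4, and for TRBV20 with TRAV7N-4 (7 clonotypes), all higher. After TRBV1, TRAV7-3 paired most with the segment named TRBV12-2+TRBV13-2 in the deposited table (9.69%), TRBV13-1 (7.62%), TRBV19 (7.49%) and TRBV3 (7.24%). TRAV7D-3 paired with TRBV12-2+TRBV13-2 (10.2%), TRBV13-1 (9.35%), TRBV3 (7.80%) and TRBV16 (6.68%). TRAV7-4 paired most with TRBV12-2+TRBV13-2 (9.47%), TRBV16 (8.35%), TRBV3 (8.03%), TRBV12-2 (7.38%) and TRBV29 (7.22%), and TRBV20 was 2.04 times as frequent with it as in all clonotypes (4.65%, 29 clonotypes). TRAV7D-4 paired most with TRBV16, at 13.1% of clonotypes (8.92 to 18.4) against 7.49% of all. That share was 13.2% in control Teff, 15.9% in anti-CD137 Teff and 16.0% in control Tpex, with 10, 14 and 4 clonotypes. It was 0 of 12 in anti-CD137 Tpex, 0 of 4 in control Tex and 0 of 8 in anti-CD137 Tex. TRBV12-1, TRBV12-2+TRBV13-2, TRBV3 and TRBV13-1 followed for TRAV7D-4, with 19 to 14 clonotypes each. TRAV7N-4 paired most with TRBV12-2, in 11 clonotypes, then with TRBV3, TRBV1, TRBV19 and TRBV12-1, in 9 to 7 each. TRBV2 was with 6.10% of TRAV7D-4 clonotypes (3.29 to 10.2, 13 clonotypes) against 2.40% of all.

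After the bases that match the V copy and the TRAJ were taken off, the median TRAV7-3 chain had 2 bases left in CDR3 (quartiles 1 and 4), and 17.2% had none. The share with none was 19.1% for TRAV7D-3, 14.1% for TRAV7-4, 17.5% for TRAV7D-4 and 22.9% for TRAV7N-4, with overlapping intervals. Median CDR3 length was 13 residues for the number 3 copies and 14 for the number 4 copies, whose germline V segment is 4 bases longer at its end. Of 1951 different chains of the copies, 63 occurred in both treatments, or 3.23% (2.49 to 4.11). The share was 5.09% for TRAV7-3 (34 of 668), 3.05% for TRAV7D-3 (12 of 394), 2.82% for TRAV7-4 (16 of 567), 0.485% for TRAV7D-4 (1 of 206) and 0 of 116 for TRAV7N-4, which allows up to 3.13% by the exact interval. Of the 63 chains 65.1% (52.0 to 76.7) had no inserted base, against 13.4% (11.9 to 15.0) of the 1888 chains found in 1 treatment.

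Some of these chains recurred with many different beta chains. The amino acid CDR3 with the most TRB partners was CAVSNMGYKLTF, joined to TRAJ9, in 11 TRAV7-3 and 11 TRAV7D-3 cells with 22 different TRB chains of 11 TRBV segments. Of these cells, 7 were in control Teff, 13 in anti-CD137 Teff, 1 in control Tpex and 1 in anti-CD137 Tpex. A single nucleotide form made up 11 of the TRAV7D-3 and 7 of the TRAV7-3 cells, and it is shown with the bases of the V copy in capitals and those of TRAJ9 in small letters.
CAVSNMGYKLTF in TRAV7-3 and TRAV7D-3: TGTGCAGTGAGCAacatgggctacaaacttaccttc
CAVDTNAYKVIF with TRAJ30 followed, in 12 TRAV7-3 and 4 TRAV7D-3 cells with 15 TRB chains, then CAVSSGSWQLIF with TRAJ22, in 6 and 2 cells with 8 TRB chains. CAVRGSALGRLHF with TRAJ18 was in 7 TRAV7D-3 cells and 1 TRAV7N-4 cell with 7 TRB chains, and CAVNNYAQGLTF with TRAJ26 was in 4 TRAV7-3, 2 TRAV7D-3 and 1 TRAV7-4 cells with 7. Of the 5 nucleotide chains with the most cells among those found in both treatments, 1 was of TRAV7-4, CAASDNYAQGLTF with TRAJ26. It was in 1 control Teff, 1 anti-CD137 Teff and 7 anti-CD137 Tpex cells with 5 TRB chains. In that Tpex library member cells with the same TRA shared their TRB in 43.8% of comparisons. The part of that in the 5 TRB chains was not tested. In all, 90 amino acid CDR3s occurred with both TRAV7-3 and TRAV7D-3, which is 15.0% of the 600 of TRAV7-3 and 24.3% of the 371 of TRAV7D-3.

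Clone size followed the sorted subset. The expanded share, the share of paired cells in clonotypes of at least 2 cells of the library, was 4.10% for the 5 copies in control Teff and 6.30% in anti-CD137 Teff, against 3.71% and 4.52% of all paired cells. It was 39.5% (34.0 to 45.1) in control Tpex, where all paired cells had 56.3%, and 32.2% (26.0 to 39.0) in anti-CD137 Tpex against 32.4%. In control Tex it was 91.0% against 91.9% of all, and in anti-CD137 Tex 76.9% against 82.3%. Between treatments it differed by -14.0 points in Tex (-22.0 to -6.10), by 2.19 points in Teff (-0.000615 to 4.35) and by -7.26 points in Tpex (-15.7 to 1.42). The Tpex value turned to 4.07 points when all libraries were thinned to 4471 paired cells, and to 19.7 points when clonotypes were defined by the TRA chain alone.

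Counting cells, the numbers differed in this within control Tpex. Of 131 paired number 3 cells there 26.0% (18.7 to 34.3) were expanded, against 49.2% (41.7 to 56.7) of 183 number 4 cells. TRAV7-3 had 28.3% and TRAV7D-3 18.8%, and TRAV7-4 had 53.0%, TRAV7D-4 52.5% and TRAV7N-4 28.6%, the last from 1 clonotype of 8 cells. In anti-CD137 Tpex the order was the other way, with 38.3% (30.1 to 47.2) of 133 number 3 and 21.8% (13.2 to 32.6) of 78 number 4 cells. These intervals treat cells of 1 clonotype as independent. Counting clonotypes, 11.0% of 109 number 3 and 20.5% of 117 number 4 clonotypes were expanded in control Tpex. The values in anti-CD137 Tpex were 21.2% of 104 and 8.96% of 67 clonotypes. No intervals were computed for these clonotype shares, so they do not settle whether the numbers differ. In anti-CD137 Teff, TRAV7-4 had 11.0% expanded cells (29 of 264), and without its largest clonotype 4.08%.

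**Figure D4:**
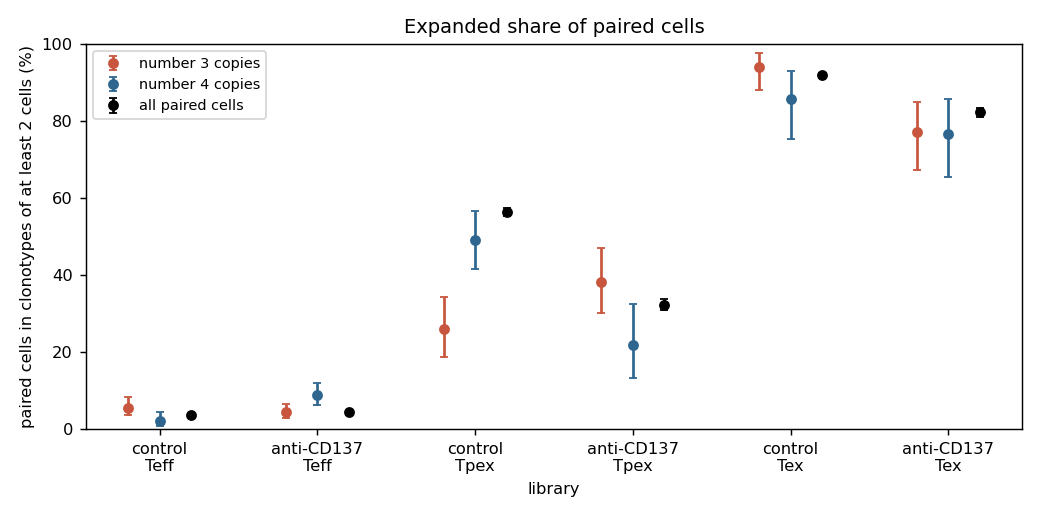
Share of paired cells (%, vertical axis) in clonotypes of at least 2 cells for number 3 copies (red), number 4 copies (blue) and all paired cells (black) in each library, with exact 95% intervals. In control Tpex the red point lies at 26.0% and the blue at 49.2%, and in anti-CD137 Tpex they lie at 38.3% and 21.8%.

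A few clonotypes held many of the Tex cells. In this paragraph and the next, cells of a clonotype also had the same V and J segments. The largest was TRAV7-3 with TRAJ34, alpha CDR3 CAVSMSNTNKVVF, paired with TRBV30 and beta CDR3 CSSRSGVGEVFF. It had 58 control Tex and 9 control Tpex cells, which was 56.3% of the paired TRAV7-3 cells of control Tex. The second TRAV7-3 clonotype, with TRAJ12 and TRBV5, had 30 control Tex and 2 control Tpex cells, and the third, with TRAJ9 and TRBV12-2+TRBV13-2, had 18 cells, all in anti-CD137 Tex. The largest TRAV7-4 clonotype, TRAJ6 with alpha CDR3 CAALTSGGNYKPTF and TRBV31 with beta CDR3 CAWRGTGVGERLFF, had 19 control Tex and 17 control Tpex cells. Of its 36 cells, 30 also carried a TRAV12-2 TRA contig, and in 34 further cells with the same TRB the TRAV7-4 chain was present but was not the TRA with the most UMIs, so those are not among the member cells. A further TRA contig was also carried by 11 of 67 cells of the largest TRAV7-3 clonotype and by 19 of 32 cells of its second. The next TRAV7-4 clonotypes were TRAJ31 with TRBV10, 19 cells of anti-CD137 Teff, and TRAJ38 with TRBV3, 11 control Tex and 2 control Tpex cells.

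The largest clonotypes of the rarer copies were small. For TRAV7D-3 the largest held 9 cells (TRAJ12 with TRBV12-2+TRBV13-2, 8 of them control Tex). By the CDR3 pair alone, the largest TRAV7D-3 clonotype of control Tex had 9 cells. The next held 5 cells (TRAJ27 with TRBV19) and 5 cells (TRAJ13 with TRBV29, all anti-CD137 Tex). For TRAV7D-4 the largest held 9 cells (TRAJ37 with TRBV26, all control Tpex), 5 cells (TRAJ43 with TRBV12-1) and 4 cells (TRAJ27 with TRBV1). For TRAV7N-4 they held 8 cells (TRAJ9 with TRBV3, all control Tpex), 7 cells (TRAJ28 with TRBV14, all anti-CD137 Tex) and 2 cells (TRAJ15 with TRBV17, anti-CD137 Teff). Of the copies' clonotypes, 1 was found in all 3 subsets of a treatment. It was TRAV7-3 with TRAJ9 and TRBV29 in anti-CD137 mice, with 1 Teff, 2 Tpex and 3 Tex cells. Of its 6 cells, 4 also carried a TRAV7D-2 TRA contig.

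Tex cells of the copies shared clonotypes with Tpex mostly in control mice. There 81.4% (75.1 to 86.7) of 188 paired Tex cells of the copies belonged to a clonotype also seen in Tpex, 19 of 39 clonotypes, against 78.8% of all paired control Tex cells. With anti-CD137 it was 19.5% (13.8 to 26.3) of 169 cells, 9 of 65 clonotypes, against 44.3% of all paired cells. For the copies, V and J segments also had to match, whereas for all cells the CDR3 pair alone had to. The stricter match can only lower the values of the copies. By the CDR3 pair alone the copies had 38 clonotypes in control Tex, and their shared part by that definition was not computed. The control and anti-CD137 values were 90.3% and 28.4% for TRAV7-3, 73.2% and 22.6% for TRAV7-4, and 73.3% and 6.90% for the 15 and 29 cells of TRAV7D-3. The anti-CD137 values rest on the Tpex library where a shared TRA came with the same TRB in 43.8% of comparisons. That library had 4471 paired cells, against 10041 in control Tpex. The part of either in these values was not tested. In control Tex, clonotypes of 58, 30 and 19 cells held many of the 188 cells.

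Member cells were spread over the deposited clusters, which are numbered 0 to 8 and are not named here, much as all TRA-bearing cells of their library. In control Tex 87.3% of the 189 cells lay in cluster 3 and 7.94% in cluster 4, against 89.8% and 8.02% of all. In anti-CD137 Tex 24.6% of 171 cells lay in cluster 3 and 73.7% in cluster 4, against 22.5% and 76.7% of all. The cluster 4 share thus differed by 65.7 points between treatments (57.0 to 73.0), and by 45.7 points with each clonotype counted once per cluster. In Tpex, cluster 1 held 84.7% of control and 79.5% of anti-CD137 member cells, and cluster 5 held 4.91% and 14.9%, a difference of 9.98 points (4.62 to 15.8), against 3.19% and 13.9% of all cells.

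In Teff, clusters 0 and 2 held most member cells. Number 3 cells lay in cluster 2 more often than number 4 cells in anti-CD137 Teff, at 51.4% and 41.7%, a difference of 9.68 points (3.22 to 16.0), with 47.8% of all cells. In control Teff the shares were 45.5% and 40.9%, and the difference of 4.60 points had an interval from -2.45 to 11.6. Cluster 6 held 6.07% of the 988 anti-CD137 Teff member cells, against 4.29% of all, and the TRAV7-4 clonotype with TRAJ31 and TRBV10 accounted for 12 of these cells. That clonotype also had 5 cells in cluster 3, a cluster with 46 TRA-bearing cells in that library. It had 0 of its 19 cells in cluster 2, and the cluster 2 difference without this clonotype was not computed.

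**Figure D5:**
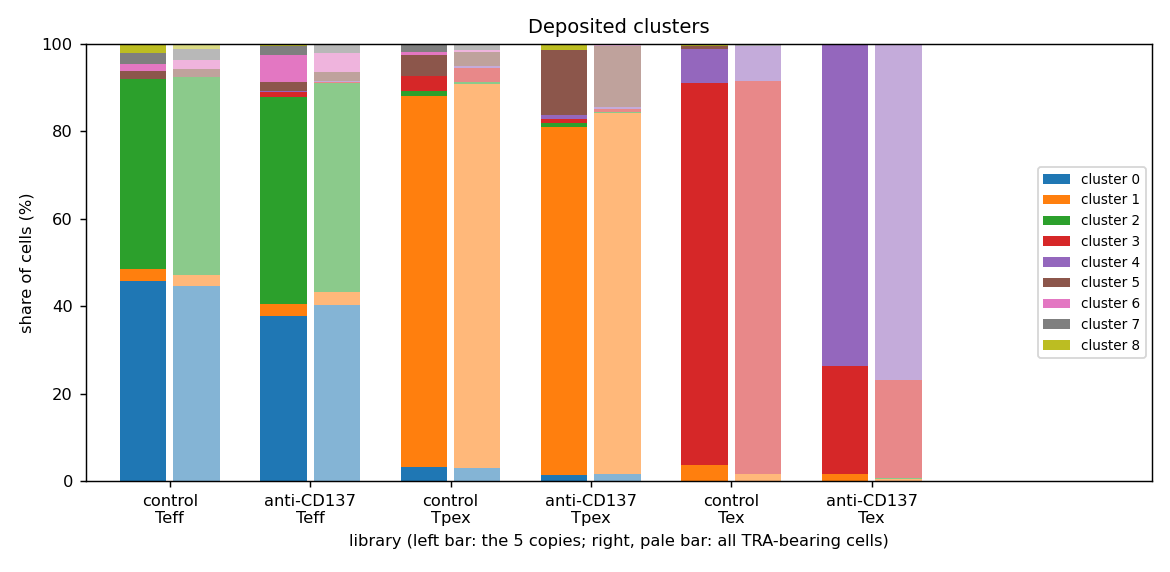
Share of cells (%, stacked) in the 9 deposited clusters for member cells of the 5 copies (left bars) and all TRA-bearing cells (right, pale bars) of each library. The bars of a library resemble each other, with cluster 3 leading in control Tex (87.3% and 89.8%) and cluster 4 in anti-CD137 Tex (73.7% and 76.7%).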

How the data were processed

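Single-cell 5′ and TCR libraries were processed with Cell Ranger 3.0.2, Seurat 4.0.0 and the mm10 build, per the submitters' processing notes. The deposited TCR table gives counts of UMIs and of reads for each contig, and the deposited cell table gives counts of UMIs per cell and the authors' cluster numbers. Barcode and library linked contigs to the cell table. Of several TRA or TRB contigs in a cell the one with most UMIs was taken, and reads broke ties, which 2004 TRA-bearing cells had. A clonotype found under more than 1 V name was counted under the first. Contigs marked not productive numbered 0. Doublet removal is a step not given in the sources used here. Cells with more than 1 TRA or TRB were left out as an alternative, and no doublet caller was run. V and TRAJ sequences were read from GENCODE M21 transcripts, whose names matched all 5 copies and all 42 TRAJ. The members and lists were chosen with earlier results of these data known. Named were all copies, the 5 most frequent TRAJ and TRBV of each copy, those at least 2-fold from all chains with at least 20 chains, the 3 largest clonotypes of each copy, those in all 3 subsets, and chains with most TRB partners. The TRBV1 subset, TRAJ and TRBV partners outside these rules, the third CDR3 residue and cluster 2 of Teff were described after their values were seen. With 1 library per group no test was run. Intervals used scipy 1.17.1 and Newcombe's method for differences. How well they hold in libraries with many expanded clonotypes, such as Tpex and Tex, was not tested. Alternatives varied the cells, chains and clonotype definition.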

Additional observations from a re-analysis of the deposited data

Results flagged for a closer look

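Member chains were also found at TCR barcodes outside the deposited cell table, which no comparison above uses. Their number was 21 in control Teff, 39 in anti-CD137 Teff, 52 in control Tpex, 357 in anti-CD137 Tpex, 4 in control Tex and 64 in anti-CD137 Tex. In anti-CD137 Tpex they made up 62.4% of all barcodes whose leading TRA was 1 of the 5 copies, against 63.1% for all TRA-bearing barcodes. The copies held 4.59% of the TRA-bearing barcodes outside the table there and 4.72% of those in it.

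The expanded share moved in opposite directions between groups, with both intervals excluding 0, and that contrast was not itself tested. For number 3 copies, anti-CD137 minus control was 12.4 points in Tpex and -17.0 points in Tex. For number 4 copies it was 6.62 points in Teff and -27.4 points in Tpex. The Teff value includes a TRAV7-4 clonotype of 19 cells, and leaving out the largest number 4 clonotype per library gave expanded shares of 4.27% in anti-CD137 and 1.70% in control Teff. Counting cells, the number 3 and number 4 copies moved in opposite directions within Tpex, by 12.4 and -27.4 points. In anti-CD137 Tpex, cells with the same TRA shared their TRB in 43.8% of comparisons, and the part of that in these values was not tested.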

How the results depend on the processing

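No paired analysis was possible because each group held 1 library. The share difference of the 5 copies in Tpex was 0.601 points with each clonotype counted once and 0.373 with each TRA chain once, against 1.52 by cells. In Tex it was 1.95 points among cells with exactly 1 TRA contig. The expanded share difference in Teff was 5.29 points with clonotypes defined by TRA alone. In Tpex it was 19.7 points by TRA alone, 16.6 by TRB alone, -16.9 for clonotypes of at least 5 cells and 4.07 after thinning. The cluster 4 difference in Tex was 45.7 points with clonotypes once per cluster. The other 75 of 84 alternative values of such results lay within the interval of the value reported, including all for the median TRAJ number and for TRBV1. Those for TRBV1 ran from 5.65 points in control libraries to 8.15 in anti-CD137 libraries. Of 36 alternative values of the expanded share by library, 19 lay within the interval and 17 outside it. For single copies, 171 of 180 share differences lay within the interval and 7 outside it. The TRAV7N-4 difference in Tex changed sign, from 0.137 points to -0.115 by clonotypes and -0.105 by TRA chains. Merging the copies of a number gives no value for a single copy. Tied cells, Teff-only, single-treatment and largest-clonotype alternatives of TRBV1 and expansion were chosen after seeing the data. The cause of these changes was not tested. TRAV7D-4 and TRAV7N-4 had at most 15 Tex or anti-CD137 Tpex cells, which limits what those libraries can show.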
